A study of Mus musculus with 2 samples.

Results

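Mitochondrial ribosomal proteins and the translocases that carry proteins into mitochondria were described in colonic eosinophils, granulocytes that live in the gut wall in health. Genes were taken by name: every gene whose symbol starts with Mrpl, Mrps, Timm or Tomm followed by a digit, with 1 transcript row kept for each gene, the one with the most reads. This gave 100 of 23477 genes: 76 mitochondrial ribosomal proteins (47 Mrpl and 29 Mrps) and 24 import genes (10 Tomm and 14 Timm). The cells came from naive wild-type C57BL6 mice: the colons were digested with enzymes, and eosinophils were sorted from them by flow cytometry. They form the only group of the series, with 2 samples, each made into 3 technical libraries by CEL-Seq, a method that reads tags near the 3′ end of messenger RNA. For each transcript the deposited table gives a read total and an RPKM, which scales reads to transcript length in kilobases and to 1000000 reads, both as means of all 6 libraries. Values per sample were not analysed here. Levels are therefore descriptions, with neither an SD nor a test. Neither age and sex of the mice nor the sort gate and the number of mice pooled are given in the sources used here.

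Mitochondria carry their own small genome, and its messenger RNAs, which encode core subunits of the respiratory chain, are read by a dedicated ribosome inside the organelle. All of that ribosome's proteins are encoded in the nucleus, made in the cytosol and imported, so the mitoribosome depends on the import machinery described beside it. Precursors enter through the TOM complex of the outer membrane. The TIM23 complex of the inner membrane then takes those with a cleavable presequence, while the small TIM chaperones ferry carrier proteins across the intermembrane space to TIM22. Mature eosinophils are known for few mitochondria compared with many other cells.

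The rows kept for the 23477 genes held 7692119 reads over the 6 libraries, a mean of 1282020 a library. Reads on genes, below, are those of the kept rows. Library depths were 1892486 to 4752357 reads, each resting on 37 to 98 transcripts. Values in parentheses after a level are its 95% interval, found from the summed reads with the exact Poisson method and scaled to RPKM. They are exact for the reads but approximate for RPKM. RPKM is a mean over libraries of unequal depth, and which library held a read was not taken into account. These intervals cover counting error only, since no molecular identifiers are named and copies of 1 molecule may be counted more than once. For a gene with 0 reads a floor of 3 was set, or 0.390 reads per 1000000 reads on genes (RPM). The exact interval reaches higher, to 0.480 RPM. Of 12 eosinophil markers, 11 were at an RPKM of 1 or more, with a median of 76.8. Ccr3, the eotaxin receptor, was at 155.3, and Epx, the eosinophil peroxidase, was at 0.265. Markers of other cells were detected to differing extents, where 31.0% of all genes were at 1 or more. Epithelial genes reached it in 13 of 13 (1.60 to 89.3, median 10.1) and goblet cell genes in 7 of 8 (0.314 to 46.7). So did 6 of 8 fibroblast genes (0.193 to 66.7) and 7 of 11 macrophage genes (0 to 54.3). It was 5 of 8 for B and plasma cells (0.0373 to 44.1) and 3 of 6 for T cells (0.0662 to 1.56). The neutrophil share, 4 of 11 genes (0 to 11985.7) or 36.4%, was near that of all genes. The neutrophil genes at 1 or more were Retnlg at 11985.7, S100a9 at 23.9, Mmp9 at 23.5 and S100a8 at 10.2, while Elane and Mpo, 2 granule enzymes, had no read. The members are expressed in nearly every cell type. The part of these other cells in the members' levels was not tested, and fewer cells of a type and less RNA per cell cannot be told apart in these bulk libraries.

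Most members were detected at low to moderate levels. Of the 100, 74 reached an RPKM of 1, beside 31.0% of all genes, and 94 had at least 1 read, beside 69.0%. Another threshold, 10, was reached by 12 members, beside 8.77% of all genes, and 100 by 3, beside 1.28%. The median member was at 2.31, with quartiles of 0.956 and 7.05, which lay above 78.5% of all genes. The 74 members at 1 or more had a median of 3.96, beside 4.28 for the 7282 genes at 1 or more. A further 20 members lay between 0 and 1, and 6 had no read, beside 31.0% of all genes. In all, the members took 16464 reads, or 0.214% of the reads on genes, and the 5 members with the most reads took 49.0% of these. Those 5 were Tomm6, Mrpl34, Mrpl33, Timm17b and Tomm20.

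A few promoters are shown first, picked with their letters in view: 4 high members that hold a core, and short stretches between a member and a neighbour that starts on the other strand. They do not stand for all high members. Of 11 members at an RPKM of 10 or more with a promoter window, 6 held an ETS, NRF1 or YY1 core, and so did 44 of all 88 members with a window. Tomm6, Timm17b, Mrpl20, Mrps15 and Mrpl14 held none of these. All are RefSeq sequences of GRCm38.p6, read 5′ to 3′ on the gene's strand and ending at the base before the start that the table also gives. Capitals mark matches on either strand to the ETS core CCGGAAG, the NRF1 core GCATGCGC, the YY1 core AAGATGGCG and a ZNF143 core. ETS factors, NRF1 and YY1 are transcription factors known to bind promoters of nuclear genes for mitochondrial proteins. The ZNF143 core was chosen after the Mrpl34 promoter had been read.
Mrpl34, chr8:71464676-71464925, plus strand: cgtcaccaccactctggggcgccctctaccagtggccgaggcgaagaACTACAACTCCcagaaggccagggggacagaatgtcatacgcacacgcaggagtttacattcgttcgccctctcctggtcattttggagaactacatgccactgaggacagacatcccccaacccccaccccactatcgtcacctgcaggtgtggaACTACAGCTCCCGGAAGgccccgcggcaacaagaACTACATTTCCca
Mrpl33, chr5:31613701-31613950, plus strand: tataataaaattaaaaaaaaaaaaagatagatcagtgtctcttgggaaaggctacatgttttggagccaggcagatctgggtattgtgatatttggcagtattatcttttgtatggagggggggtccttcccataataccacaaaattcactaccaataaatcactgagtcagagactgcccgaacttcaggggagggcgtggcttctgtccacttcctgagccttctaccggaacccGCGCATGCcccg
Mrpl36, chr13:73330759-73331008, plus strand: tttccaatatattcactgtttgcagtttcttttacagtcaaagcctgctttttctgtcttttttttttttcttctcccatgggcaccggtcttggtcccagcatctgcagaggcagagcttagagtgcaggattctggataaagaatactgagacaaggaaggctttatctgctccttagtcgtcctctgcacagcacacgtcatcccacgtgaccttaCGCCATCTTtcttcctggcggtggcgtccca
Mrps18c, chr5:100798601-100798758, plus strand: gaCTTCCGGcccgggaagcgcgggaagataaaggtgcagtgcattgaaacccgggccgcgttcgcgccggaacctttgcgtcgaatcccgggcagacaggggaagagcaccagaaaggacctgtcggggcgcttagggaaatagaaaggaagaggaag
Mrps11, chr7:78783090-78783130, plus strand: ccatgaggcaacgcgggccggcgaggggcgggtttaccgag
Timm8b, chr9:50603850-50603900, plus strand: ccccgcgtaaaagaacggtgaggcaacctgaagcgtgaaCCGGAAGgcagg

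The Mrpl34 promoter held 3 ZNF143 cores, which begin 203, 47 and 13 bases before the start, and an ETS core at 37 bases that overlaps the middle one. In Mrpl33 the NRF1 core began 12 bases before the start, and in Mrpl36 the YY1 core began 31 bases before it. Mrps18c, Mrps11 and Timm8b are cut short where the opposite-strand neighbour begins, at Helq, Mrpl46 and Sdhd. Timm8b had an ETS core 12 bases before its start, and Mrps18c had one at 156 bases. The 41 bases between Mrpl46 and Mrps11 held none of the cores marked in capitals. The full promoter window of Mrps11, which is longer than this stretch, held a YY1 core. A match describes letters and is not evidence of binding, and nothing in these data measures a factor on the DNA.

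Transcripts of the large subunit ranged from 0.229 to 167.4 by RPKM among those with a read. Of 47 Mrpl genes, 38 were at 1 or more and 6 at 10 or more, with a median of 2.32. Mrpl34, at chr8:71464926-71465753, had 1803 reads and an RPKM of 167.4 (159.7 to 175.3), above 99.3% of all genes. Mrpl33, at chr5:31613951-31622644, followed at 138.6 (130.4 to 147.1) from 1074 reads. Both encode small proteins of bacterial descent, and their intervals do not meet. Mrpl36, another short protein inherited from bacteria, was at 23.3 (20.8 to 26.0) from 316 reads, which is clear of both. Mrpl42 at 17.8 (15.5 to 20.4) and Mrpl20, which binds ribosomal RNA, at 16.1 (14.0 to 18.5) could not be ordered from counting error. Mrpl14, which lies on the face that meets the small subunit, was at 11.9 (9.93 to 14.1).

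At the low end Mrpl21 was at 0.507 (0.262 to 0.886) from 12 reads, Mrpl1 at 0.408 (0.275 to 0.582) from 30 and Mrpl48 at 0.229 (0.0472 to 0.669) from 3. Mrpl23 had no read. Proteins of the same structure thus differed by far more than counting error in the level of their transcripts. The L7/L12 stalk is the arm that recruits translation factors. Its base Mrpl10 was at 1.39 (1.02 to 1.84), Mrpl11 at 1.13 (0.853 to 1.47) and Mrpl12, the stalk protein proper, at 2.01 (1.43 to 2.74), and the intervals all overlap. Around the exit of the tunnel through which the new chain leaves, levels were less even. Mrpl45, which anchors the ribosome to the inner membrane, was at 9.47 (8.56 to 10.5) and Mrpl24 at 7.57 (6.39 to 8.89). Mrpl44 was at 1.95 (1.39 to 2.67), Mrpl22 at 1.53 (0.919 to 2.38) and Mrpl23 at 0. Mrpl45 and Mrpl24 thus stood clear of Mrpl44. Most of the end sequence of Mrpl22 and Mrpl23 recurs in pseudogenes, as given below, so the levels of these 2 genes are uncertain.

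Large-subunit proteins with a bacterial number (Mrpl1 to Mrpl36 by name) and those that mitochondria added (Mrpl37 upwards) were set side by side. Of 28 of the first kind, 20 were at an RPKM of 1 or more, with a median of 1.76. Among the 19 of the second kind 18 were, with a median of 3.69. The highest 3 Mrpl genes were nonetheless all of the first kind.

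Small-subunit genes had a median of 1.89 and 21 of 29 at 1 or more. Mrps18c, at chr5:100798759-100804467, led with 35.7 (31.8 to 40.0) from 302 reads. Mrps23, a protein found in mitochondrial but not bacterial ribosomes, was at 17.9 (16.3 to 19.6), and Mrps15, which binds the subunit's RNA, at 15.5 (13.7 to 17.4). Below them came Mrps16 at 9.08 (7.36 to 11.1), Mrps17 at 8.51 (7.26 to 9.91) and Mrps12, a protein of the decoding centre, at 7.71 (6.27 to 9.37), whose intervals all overlap. Lowest among those with reads were Mrps33 at 0.379 (0.123 to 0.885) from 5 reads and Mrps10 at 0.208 (0.0252 to 0.752) from 2, while Mrps18b and Mrps36 had none. The name Mrps does not always mark the small subunit: Mrps18a and Mrps30 are placed in the large subunit, and Mrps36 is known as a part of the 2-oxoglutarate dehydrogenase complex. Their values were 1.40 (0.900 to 2.09), 0.984 (0.637 to 1.45) and 0.

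**Figure D1:**
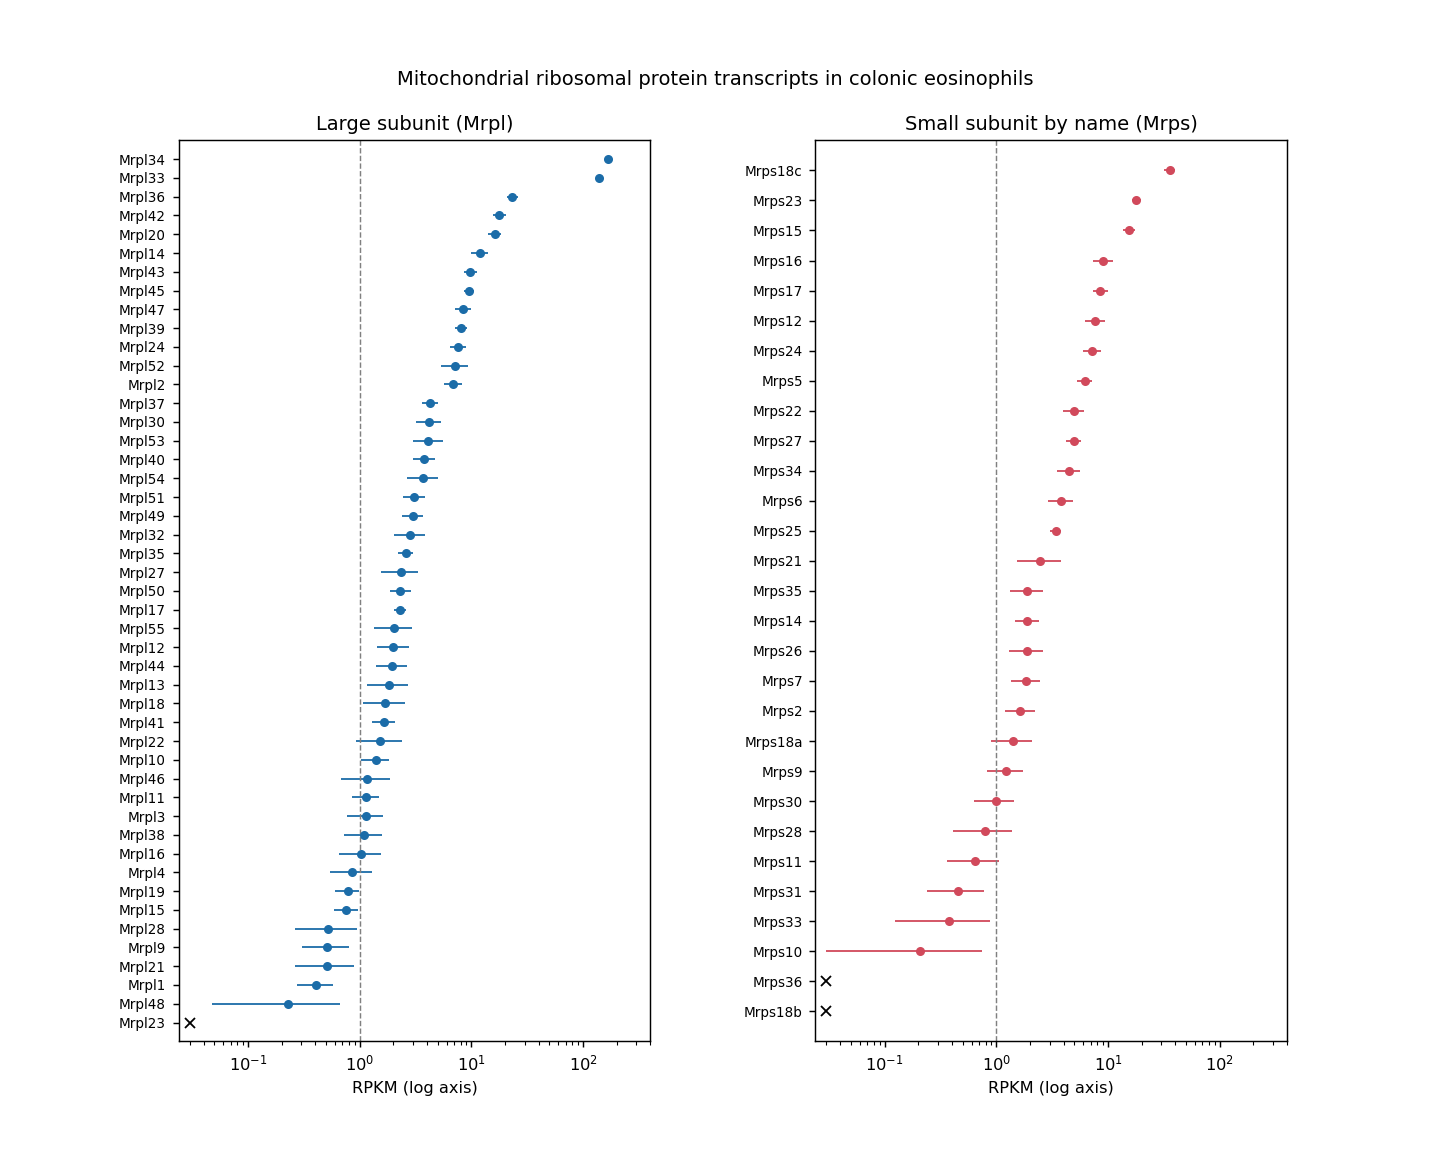
RPKM of the 47 Mrpl genes (left) and the 29 Mrps genes (right), on a log axis, from the mean over 6 libraries. Bars are exact 95% Poisson intervals of the reads, crosses at the left edge are genes with 0 reads, and the dashed line marks an RPKM of 1. Mrpl34 and Mrpl33 stand apart at 167.4 and 138.6, and Mrps18c leads the small subunit at 35.7.

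In the TOM complex 6 of 10 genes were at 1 or more, with a median of 5.24. Tomm6, a small subunit that steadies the channel, was the highest of all 100 members: 3567 reads gave an RPKM of 211.6 (204.7 to 218.6) at chr17:47686645-47688386, and these were 21.7% of all reads on members. Tomm7, a small subunit as well, was at 13.4 (11.9 to 15.1), while Tomm5, the remaining one of that kind, had 0 reads in either of its rows. The receptors Tomm20, at 7.53 (6.94 to 8.17), and Tomm22, at 6.12 (5.04 to 7.36), had levels whose intervals overlap. Tomm70a, the receptor for carrier proteins, was lower at 0.873 (0.663 to 1.13). Tomm40, the channel itself, was at 4.37 (3.66 to 5.18). Tomm34, a cytosolic co-chaperone in spite of its name, was at 7.02 (6.28 to 7.82).

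Of the 6 TIM23 genes 4 were at 1 or more. Timm17b, which lines the channel together with Timm23, was at 36.6 (34.4 to 38.9) from 1041 reads at chrX:7899398-7907652. Timm44, which holds the import motor at the channel, was at 2.42 (1.93 to 3.00), Timm17a at 1.94 (1.33 to 2.74), Timm21, which links the complex to TOM, at 1.07 (0.687 to 1.59), and the receptor Timm50 at 0.616 (0.345 to 1.02). Timm23 itself had 1 read, an RPKM of 0.0693 (0.00175 to 0.386). By counting error alone, its interval lay below those of all the others of the complex except Timm50, with which it overlaps narrowly. Most of the end sequence of Timm23 recurs in another gene, as given below, so its level is uncertain.

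The TIM22 group had 5 of 8 genes at 1 or more, and none at 10. Timm10b, which docks the small chaperones on the carrier channel, was at 9.99 (8.63 to 11.5), Timm8b at 7.59 (5.76 to 9.81) and Timm10 at 5.20 (4.06 to 6.58). Timm22, the channel, was at 2.90 (2.45 to 3.41). Timm13, the partner of the Timm8 proteins, was at 1.29 (0.878 to 1.83), and Timm8a2 was at 0.814 (0.372 to 1.55). Timm9 forms a hexamer with Timm10, yet it had 4 reads and an RPKM of 0.391 (0.107 to 1.00), clear of the interval of its partner. Timm8a1 had no read.

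**Figure D2:**
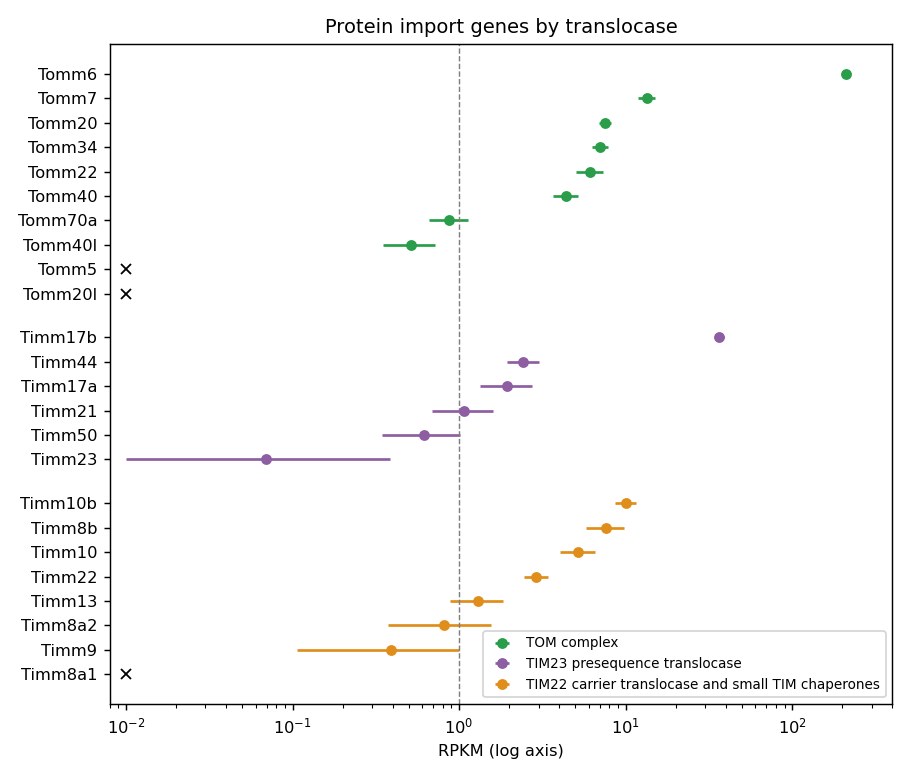
RPKM of the 24 import genes on a log axis, grouped by translocase. Bars are exact 95% Poisson intervals of the reads, clipped at the left edge for Timm23, crosses are genes with 0 reads, and the dashed line marks an RPKM of 1. Tomm6 at 211.6 and Timm17b at 36.6 lie far to the right of the other members of their complexes. Timm23 lies at 0.0693, a level that is uncertain because most of its end sequence recurs in another gene.

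Members that share a family name were compared in pairs, and in each pair 1 gene held most of the reads. Timm17b was 18.9 times Timm17a by RPKM (13.3 to 27.7) and 32.5 times by reads. Mrps18c was 25.4 times Mrps18a (16.8 to 40.3), although these sit in different subunits, and 12.6 times by reads. Timm8b was 9.32 times Timm8a2 (4.59 to 21.4), and Tomm40 was 8.55 times Tomm40l (5.80 to 12.9), whose own level was 0.511 (0.352 to 0.718). By reads these ratios were 6.44 and 4. The difference of Timm10b and Timm10 was smaller, 1.92 times (1.45 to 2.56). Against copies with no read only a lower bound can be given, with 3 reads over the 6 libraries as the floor. The exact interval of 0 reads reaches above this floor, so bounds from it would be smaller. By the floor, Tomm20 had at least 195.7-fold more reads than Tomm20l. Mrps18c had at least 100.7-fold more than Mrps18b, and Timm8b at least 19.3-fold more than Timm8a1.

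Between neighbours in rank, the order of the members is resolved at the top and hardly below it. Members further apart in rank could be separated lower down as well, such as Timm10 and Timm9. Among 93 neighbouring pairs of members with reads, only 5 had intervals that did not overlap. These were Tomm6 over Mrpl34, Mrpl34 over Mrpl33, Mrpl33 over Timm17b, Mrps18c over Mrpl36, and Mrpl36 over Mrps23. Members have short transcripts: the length that the authors' RPKM implies had a median of 1087 bases (422 to 6846) over the 94 members with reads, against 2656 over all genes with reads. RPKM divides by this length although CEL-Seq tags lie near the 3′ end whatever the length. Over these members Spearman's rho with length was -0.23 for RPKM and 0.20 for reads, a description across genes that share the same libraries. By RPM, without length, 89 of 100 members were at 1 or more, beside 50.9% of all genes, with a median of 7.35 that lay above 70.8% of genes.

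The end sequence of some members is shared with another gene. For 82 members the annotated transcript ends within 50 bases of the table's row, and its last 500 bases were searched for 35-base words that recur in genes elsewhere. This limit of 50 bases was set after values were seen. None recurred for 56 of them, and 3 shared at least 50%. Mrpl23, with 0 reads at chr7:142533117-142540742, shared 99.6% of its words with the processed pseudogene Mrpl23-ps1 on chromosome 2. Timm23, with 1 read at chr14:32180166-32201891, shared 94.6% with Gm10273 on chromosome 10. Mrpl22 shared 56.4% with the pseudogene Gm6997 on chromosome 14. How the authors counted reads that align to several places is not given in the sources used here, so the levels of these genes are uncertain. The other 5 members at 0 did not share as much: 35.4% for Mrps36, 33.3% for Mrps18b, 13.3% for Tomm5 and 0% for Timm8a1 and Tomm20l. Among members at higher levels, Mrpl42 shared 33.3% and Mrps16 33.5%. Of the 18 members outside the limit, 1 shared more in the nearest annotated transcript: Mrps5, at 6.22 (5.30 to 7.25) from 163 reads and so above the median member, shared 80% with the processed pseudogene Gm13328, in a transcript that ends 131 bases from its row. Another 4 of the 18 shared from 34.1% to 45.3% with 1 gene elsewhere: Timm17a, Mrpl41, Mrpl51 and Mrpl48. High sharing thus occurred both at 0 and above the median. Overlapping annotations at the same locus are a separate matter, found for 5 of the 82. Mrpl53, at 4.12 (2.98 to 5.55), shared 100% of its words with Gm42688, Tomm6 80% with Gm21981, Timm10b 52.4% with Gm45799, Mrpl33 32.7% with Gm43809 and Mrps18c 18.4% with Gm43511. Reads from the shared stretch cannot be told apart there, which limits the levels of Tomm6, Mrpl33 and Mrps18c given above.

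**Figure D3:**
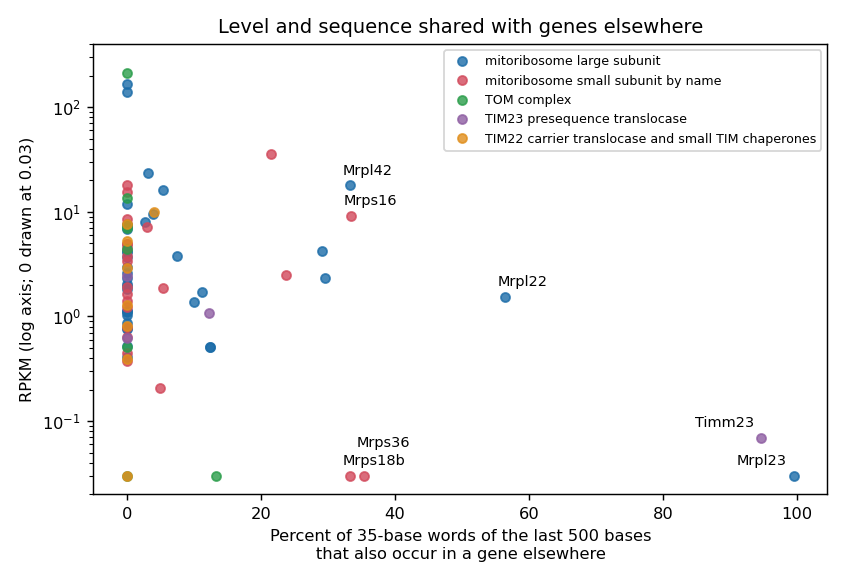
Share (%) of the 35-base words from a transcript's last 500 bases that occur in a gene elsewhere (x axis) against RPKM (y axis, log) for the 82 members searched, coloured by role, with 0 drawn at 0.03. The members with over 90% shared words, Timm23 and Mrpl23, had 1 and 0 reads, and 56 members share no word. Mrps5 is among the 18 members not drawn.

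A gene on the opposite strand covers part of the last 500 bases of 11 members, among them Timm8b, Timm13, Timm21, Tomm40l and Mrpl24. Timm9 and Tomm20l overlap each other in this way. Whether the counting used strand is not given in the sources used here, and without it reads of such partners cannot be told apart. Several rows exist for 12 members. In 6 of them, Mrps2, Mrps33, Timm22, Timm9, Tomm40 and Tomm6, 1 row held all reads. Rows shared the reads in 4: Mrpl15 with 67, 20 and 19, Mrpl1 with 30 and 8, Mrpl48 with 3 and 3, and Mrps10 with 2, 2 and 2. For Mrpl15 the kept row therefore held 63.2% of the gene's reads, at an RPKM of 0.758 (0.588 to 0.963). The rows of Mrps36 and Tomm5 were all at 0.

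Many members start back to back with another gene. A start on the opposite strand, pointing away and within 1000 bases, was found for 31 of 100 members, beside 9.08% of all genes and 13.9% of those whose RPKM was at least 1. The share was 34.2% for mitoribosomal genes, 20.8% for import genes and 0 of 10 for the TOM complex. Comparison families, used below as well, were taken by symbol alone. The oxidative phosphorylation family held symbols starting with Ndufa, Ndufb, Ndufc, Ndufs, Ndufv, Uqcr, Uqcc, Atp5 or Cox and a digit, and Sdha to Sdhd. For the cytosolic ribosomal family they start with Rpl, Rps or Rplp and a digit. These rules also match genes that are not subunits, such as assembly factors and kinases, which were not removed. The oxidative phosphorylation family was close at 28.4%, and the cytosolic ribosomal family was at 12.9%. Examples were chosen after their values were seen, for partners that also act in mitochondria. Mrpl46 and Mrps11, of the 2 subunits, start 42 bases apart on chromosome 7 and were at 1.17 (0.680 to 1.87) and 0.641 (0.359 to 1.06), which overlap. Timm8b starts 52 bases from Sdhd, a subunit of succinate dehydrogenase, which was at 1.46. Mrpl43, at 9.78 (8.51 to 11.2), starts 116 bases from Peo1, the mitochondrial DNA helicase, at 0.220. Mrpl47 was at 8.43 (7.08 to 9.96), and Ndufb5 of complex I, 308 bases away, was at 15.2. Mrps12 lies 187 bases from Sars2, the mitochondrial seryl-tRNA synthetase, at 0.819. Levels of neighbours so close together thus ranged from overlapping within counting error to strongly unequal, and either gene of a pair could be the higher. Timm23 with its 1 read has Parg 80 bases away at 1.46, and Timm17b has Pqbp1 at 398 bases with 24.0.

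**Figure D4:**
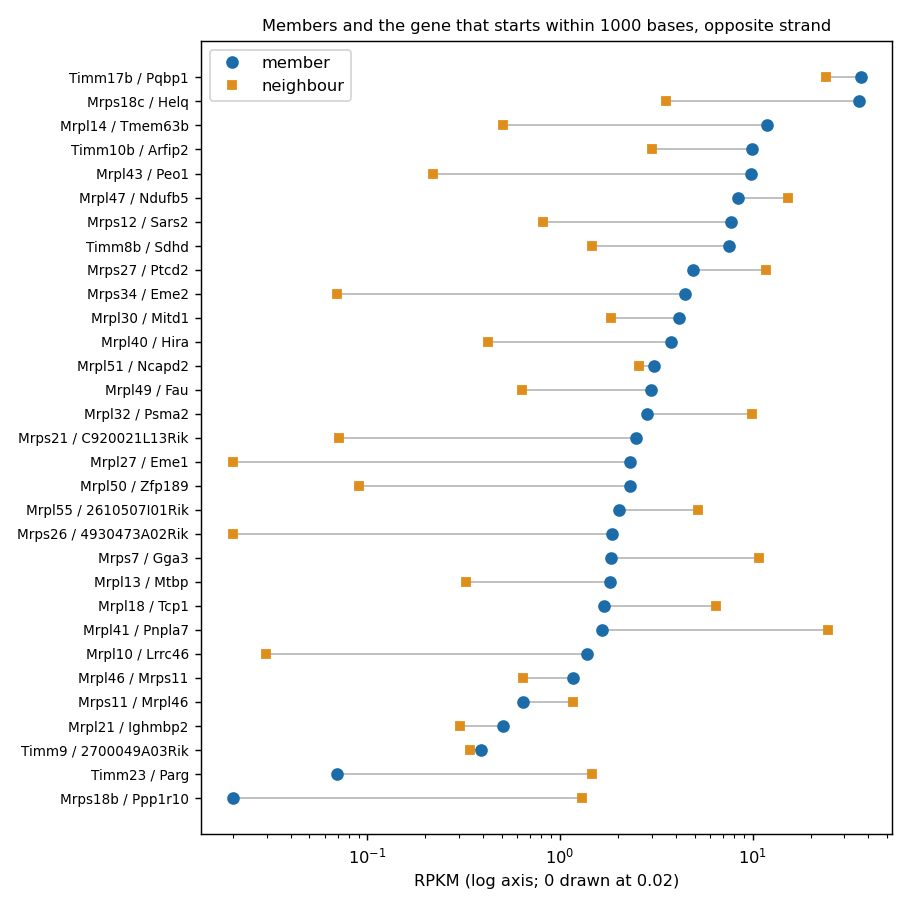
RPKM (log axis, 0 drawn at 0.02) of each of the 31 members with an opposite-strand gene starting within 1000 bases (circles) and of that neighbour (squares), joined by a line. Members are ordered by their own level, from Timm17b at 36.6 down to Mrps18b at 0, and the squares fall on both sides of the circles.

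Promoters of 88 members were matched to RefSeq windows by transcript accession, or by symbol where the accession was missing. The windows ran from 250 bases before to 50 after the start, 96 windows in all. The ETS core occurred in 34.4% of these, beside 8.86% of all promoter windows and 18.5% of windows of genes whose RPKM was at least 1. Windows of the cytosolic ribosomal family held it in 30.7% and those of the oxidative phosphorylation family in 25.3%. The NRF1 core was in 9.38% of member windows, against 2.71% of all and 4.92% of those of genes at 1 or more. The YY1 core was also in 9.38%, against 1.40% and 3.48%. The ZNF143 core was picked from the promoter of a member, Mrpl34, so its share supports nothing: it was in 7.29%, or 6.32% without that gene, beside 1.98% and 3.78%. Other motifs did not set the windows so far apart: the GC box GGGCGG was in 51.0% (35.7% of all, 63.3% at 1 or more), CCAAT in 38.5% (37.4% and 36.5%) and TATAAA in 7.29% (13.6% and 7.81%). The 32 members with an ETS core had a median RPKM of 3.60 (0 to 167.4), and the 56 without had 2.17 (0 to 211.6). For the NRF1 core the order was the opposite, with 1.53 (0 to 138.6) in 9 members and 2.59 (0 to 211.6) in 79 without. For the YY1 core the medians were 4.26 (0.616 to 23.3) in 9 members and 2.32 (0 to 211.6) in 79. All of these ranges overlap.

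Beside related families, the members were intermediate in their median and in the share at 1 or more, and lowest at the upper end. The oxidative phosphorylation family, whose name rule also matches assembly factors, had 89 of 102 at 1 or more and a median of 10.2. The mitoribosome makes partners of many of its subunits. The cytosolic ribosomal family had 52 of 101 at 1 or more, 16 at 0 and a median of 1.11. Its name rule also matches kinases, so these are not values of ribosomal proteins alone. The maximum was 2602.4, a wide spread in a family with many pseudogene copies. At 10 or more were 12 of 100 members, 29 of 101 in the cytosolic ribosomal family and 53 of 102 in the oxidative phosphorylation family. The upper quartiles were 7.05, 12.5 and 29.6. The families took 0.214%, 1.18% and 0.468% of the reads on genes.

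**Figure D5:**
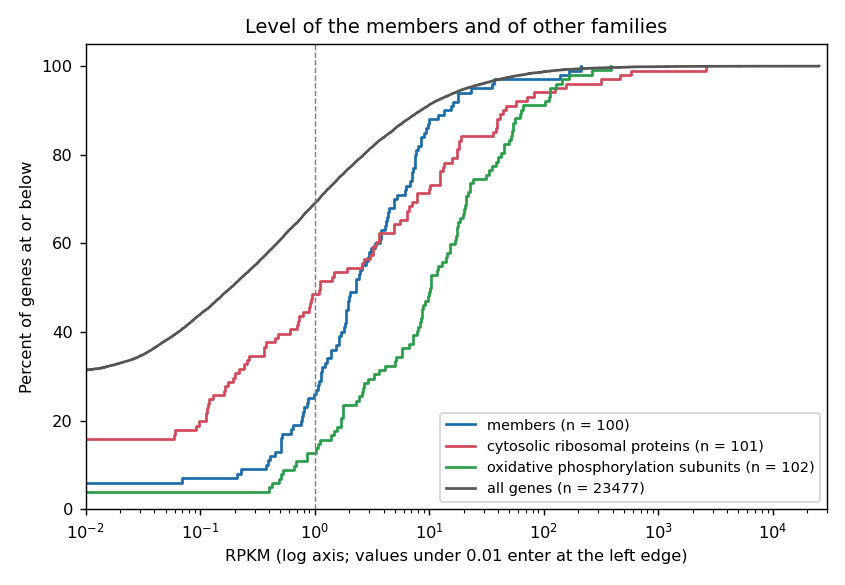
Percent of genes at or below a given RPKM (log axis) for the 100 members, 2 families taken by symbol and all 23477 genes. The families are the cytosolic ribosomal one (101 genes) and the oxidative phosphorylation one (102 genes), each with some genes that are not subunits. The median of the members, 2.31, lies between 1.11 for the cytosolic ribosomal family and 10.2 for the oxidative phosphorylation family.

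By RPKM, lists of ribosome assembly, translation and mitochondrial transcription were mostly lower than the ribosomal proteins, whose median was 2.31. The genes of these 3 lists have longer transcripts, with median implied lengths of 2107, 2229 and 3390 bases against 1078. By RPM, without length, 20 of 22, 11 of 14 and 9 of 10 were at 1 or more, beside 70 of 76 ribosomal proteins. Their RPM medians were 4.42, 2.21 and 4.29, against 7.15. A list of ribosome components outside the name rule of the members was not lower. It had 6 of 8 genes at 1 or more and a median of 3.71, or 19.6 by RPM. It includes Mrp63, at 4.93, and Tmem223, at 0.454, which is not a structural component of the ribosome. The list was led by Ict1, a release factor built into the large subunit, at 43.3. Gadd45gip1 was at 8.52, Aurkaip1 at 8.14 and Ptcd3 lowest at 0.328. Factors of ribosome assembly and RNA modification had 8 of 22 at 1 or more (median 0.812), from Rbfa at 9.64, Bop1, in fact a nucleolar factor of cytosolic ribosomes, at 8.34 and the helicase Ddx28 at 8.01 down to the GTPase Mtg1 at 0.0975. A list of translation factors and associated proteins was lower still, with 3 of 14 at 1 or more (median 0.422). These were the membrane insertase Oxa1l at 4.12 and the RNA-binding pair Lrpprc at 3.52 and Slirp at 2.68. None of them is a translation factor proper, and all the other genes of the list were below 1. The elongation factor Tufm had no read. Of genes of mitochondrial transcription and genome upkeep 1 of 10 was at 1 or more (median 0.632): Tefm, an elongation factor, at 3.35, with the DNA-packaging Tfam at 0.903, the polymerase Polrmt at 0.842 and Tfb2m lowest at 0.140.

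On the import side, the motor and processing peptidases had 8 of 13 at 1 or more (median 2.66). Grpel1, the nucleotide exchange factor of the motor, was at 34.7, the motor's chaperone Hspa9 at 8.69, Pam16 at 8.03, and the peptidase Immp2l lowest at 0.0692. Sorting factors of the outer membrane and intermembrane space had 8 of 10 (median 1.54), with Mtch1 at 25.4, Samm50 at 7.93, Timmdc1 at 3.59 and Agk at 0.119. Among chaperones and proteases of the matrix and inner membrane 9 of 14 were at 1 or more (median 2.04). The co-chaperonin Hspe1 stood out at 217.6, followed by the proteases Spg7 at 11.3 and Yme1l1 at 5.98, and Clpp was lowest at 0.289.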

How the data were processed

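Colonic eosinophils were profiled by CEL-Seq in 2 samples of 1 group. STAR 2.4.2a, DESeq and the build mm10 are named per the submitters' processing notes. The counter, its use of strand, how it treated reads with several alignments and the lengths behind RPKM: not given in the sources used here. RPKM values were computed by the authors, per the file headers. As deposited, the totals of reads are an averaged signal and not raw counts: 100% of them times 6 were whole within 0.0001, as a mean over 6 libraries would be, and that product gave the reads of each gene. There were 0 columns of other samples.

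From 31295 rows, the row of each gene with the most reads was taken, giving 23477 genes. The lists and the members were chosen with earlier results of these data known. Named genes were all import members, the 6 highest and 4 lowest Mrpl and Mrps genes, members at 0 and members whose rows share reads. Stalk and tunnel rim members, and the 3 highest and the lowest of each pathway list, were named as well. Others, named as examples of shared ends or neighbouring starts, were picked with their values in view. Mrp63 and Tmem223 were named because their list describes them poorly. Trbc1 and Trbc2 of the T cell list were not matched.

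Transcript lengths were taken from the ratio of reads to RPKM at an effective depth of 3016379 reads, set on 223 rows with at least 600 reads. In those same rows the central 90% of lengths were 85.8% to 114.0% of the GENCODE M21 length. Members with few reads can lie further off. Examples are Mrps10, with 531 implied bases against 1017, and Mrpl18, with 749 against 1219. Shared words were counted in the GENCODE M21 transcript whose 3′ end lies nearest to that of the row; copies outside annotated transcripts were not searched. Coordinates are 1-based, in mm10. Ratio intervals are exact conditional binomial for the reads, scaled to RPKM where a ratio of RPKM is given. Alternatives were other detection minimums, RPM, other rows per gene, another background, members with under 50% shared words and another pseudocount. Calculations used scipy 1.17.1, pandas 2.3.3 and numpy 2.4.6 under Python 3.11.15, figures used matplotlib 3.10.9, and the methods were tested on simulated data.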

Additional observations from a re-analysis of the deposited data

How the results depend on the processing

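The count of members detected was 74 at an RPKM of 1 or more. It was 94 above 0 and 30 at 5 or more, beside 14.2% of all genes at that minimum. By RPM it was 89, and with the row of highest RPKM it was 74. The median member lay above 78.5% of genes by RPKM, above 70.8% by RPM, above 77.7% with rows summed and above 68.9% of genes with reads. With the row of highest RPKM it was 78.5%, and 78.6% without the 3 members found to share at least 50% of their words. The mean log2(RPKM + 1) of the members exceeded that of all genes by 1.03, and with a pseudocount of 0.1 by 2.21, since the pseudocount sets how far genes at 0 lie below. By reads in place of RPKM, Timm17b over Timm17a became 32.5, Tomm40 over Tomm40l 4, Mrps18c over Mrps18a 12.6 and Timm10b over Timm10 2.76, which follows from their implied lengths, and no direction changed. No paired analysis was possible because the table holds 1 mean over both samples, and leaving out each replicate was not run for the same reason. At this depth members with few reads and neighbouring ranks cannot be ordered.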
